A study of Arabidopsis thaliana with 6 samples.

Results

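The circadian clock genes described here are 10 Arabidopsis thaliana loci, chosen by locus identifier from the 38194 loci of the count files. They are CCA1, LHY, RVE1, RVE8, PRR9, PRR7, PRR5, GI, TOC1 and LUX, and all 10 were found in every library. RNA was sequenced from 12-day-old 35S:GR-TCP5 seedlings, in which TCP5, a CIN-class TCP transcription factor, is fused to a glucocorticoid receptor domain that keeps it inactive until the hormone binds, and is driven by the constitutive 35S promoter. Plants grew at 22 °C in 14 h of light and 10 h of dark. The DEX group (3 libraries) was treated for 4 h with dexamethasone, labelled as 10 mM (far above the doses usual for this treatment, so the unit is in doubt), in 0.1% ethanol and 0.015% silwet-L77, and the mock group (3 libraries) with the same solution without dexamethasone. Both groups carried the construct and no line without it was included, so the effect of dexamethasone itself and that of TCP5 cannot be told apart. The labels give neither the hour of harvest nor the number of independent lines or cultures. Each p-value therefore rests on library-to-library spread, which may be technical.

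The plant clock is a loop of transcription factors that follow each other through the day. CCA1 and LHY accumulate at dawn and repress evening genes through a promoter motif called the evening element, and the pseudo-response regulators PRR9, PRR7, PRR5 and TOC1 then repress CCA1 and LHY in that order from morning to dusk. From mid-morning into the afternoon morning transcripts fall and evening transcripts rise. Plants collected at different hours of that span therefore differ in opposite directions for the genes of each phase, which need not hold at other hours. By their textbook phases CCA1, LHY, RVE1, RVE8 and PRR9 were taken as morning genes, PRR7 as a midday gene, and PRR5, GI, TOC1 and LUX as evening genes.

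The library names of replicates 1 and 2 of both groups carry one date and lane, and those of replicate 3 another. They are called date group 1 (4 libraries) and date group 2 (2 libraries). Exon counts per library ranged from 33428836 to 76859163. The 3 leaf transcripts checked (RBCS1A, LHCB1.1 and CA1) summed to between 13219 and 15741 CPM in every library, where CPM is the exon count scaled to a common library size with TMM factors. Of the 5 root transcripts checked, EXP7 and RHD6 had 0 counts in all 4 libraries of date group 1, and CASP1 and COBL9 were at most 0.524 CPM there. In date group 2 all 5 were detected. The sum of the 5 was 365 and 301 CPM with DEX and 556 and 716 CPM with mock in date group 1, and 1145 and 3154 CPM in date group 2. PYK10, also a marker of the ER bodies of seedlings, made up nearly all of that sum, and it fell with DEX (log2 fold change −1.11 ± 0.17, edgeR quasi-likelihood adjusted p = 0.0118). The part of these root transcripts in the clock results was not tested. In bulk RNA, fewer cells of a type and less RNA per cell cannot be told apart. TCP5 counts, which do not separate transgene from native transcripts, ranged from 233 to 323 CPM in date group 1 and were 964 and 1177 CPM in date group 2 (3.85-fold higher, edgeR adjusted p = 5.9e-06), with a log2 fold change of DEX over mock of −0.31 ± 0.10 (SE; edgeR quasi-likelihood adjusted p = 0.152).

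In a window of 1000 bases the evening element set the phase classes apart in the promoters. Phases and motif were both taken from textbook knowledge, so this describes the promoters and rests on no value of the libraries. All 4 evening genes held the motif AAAATATCT, on either strand, within 1000 bases upstream of the annotated gene start, and none of the other 6 genes did. Of 27443 protein-coding genes in the TAIR10.1 RefSeq annotation, 7.24% held it in a window of that length. Within 300 bases PRR5, TOC1 and LUX held it and GI did not, where 2.79% of those promoters did. The CCA1-binding site AAAAATCT, scanned as well, did not follow phase. Within 1000 bases it was found in LHY, PRR9 and PRR5 and in 21.1% of promoters. The site nearest each evening gene start is given below in the gene's own direction, with the motif or its reverse complement in capitals.
PRR5: gattttttctAGATATTTTcttttctcca
GI: agctcccctcAAAATATCTgtggacatat
TOC1: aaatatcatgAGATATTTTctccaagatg
LUX: tagaagatctAAAATATCTagctaactcg
These lie at chr5:8358715-8358743 (minus strand gene), chr1:8061150-8061178, chr5:24674802-24674830 and chr3:17182979-17183007 (plus strand genes) of TAIR10.1. PRR5 and GI each held 3 such sites within the 1000 bases, and TOC1 and LUX 1 each.

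The G-box CACGTG, a core motif bound by many bHLH and bZIP factors, was present in the same window of 7 of the 10 genes, namely all 5 morning genes, PRR7 and LUX, and of 14.8% of all promoters. It is shown for RVE1 and PRR9, the members that passed the test of DEX against mock, with the G-box in capitals.
RVE1: gaaagagcgaCACGTGgcaaagatgg
PRR9: aggttaatgaCACGTGttaaggtgga
They lie at chr5:5693088-5693113 (minus strand gene) and chr2:19232425-19232450 (plus strand gene). Neither of these promoters held GGNCCC, the core of TCP binding sites, within 1000 bases. That core was found in CCA1 and PRR7 and in 21.1% of all promoters. In CCA1 both a site of the kind bound by class II TCP proteins (GTGGNCCC, in 1.99% of promoters) and one of the kind bound by the class I protein CHE (GGNCCCAC, in 2.46%) were present; both contain the GGNCCC core. The sites are shown in that order, the first as its reverse complement.
CCA1 class II: ctagattcccGGGTCCACtgatgtttct
CCA1 CHE: atcttaagtaGGTCCCACtagatcaaga
They lie at chr2:19245359-19245386 and chr2:19245431-19245458 (plus strand gene). A match of letters describes the promoter and is not evidence that a factor bound there.

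Of the 10 clock genes, RVE1 rose and PRR9 fell after DEX and 8 did not pass the test. This was edgeR's quasi-likelihood test with the date group as a term and Benjamini-Hochberg adjustment over 21934 genes at 0.05. Of all genes tested 4.67% passed, 1.09% as rises and 3.58% as falls. The 10 members had a median log2 fold change of 0.08, and all genes one of 0.00.

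**Figure D1:**
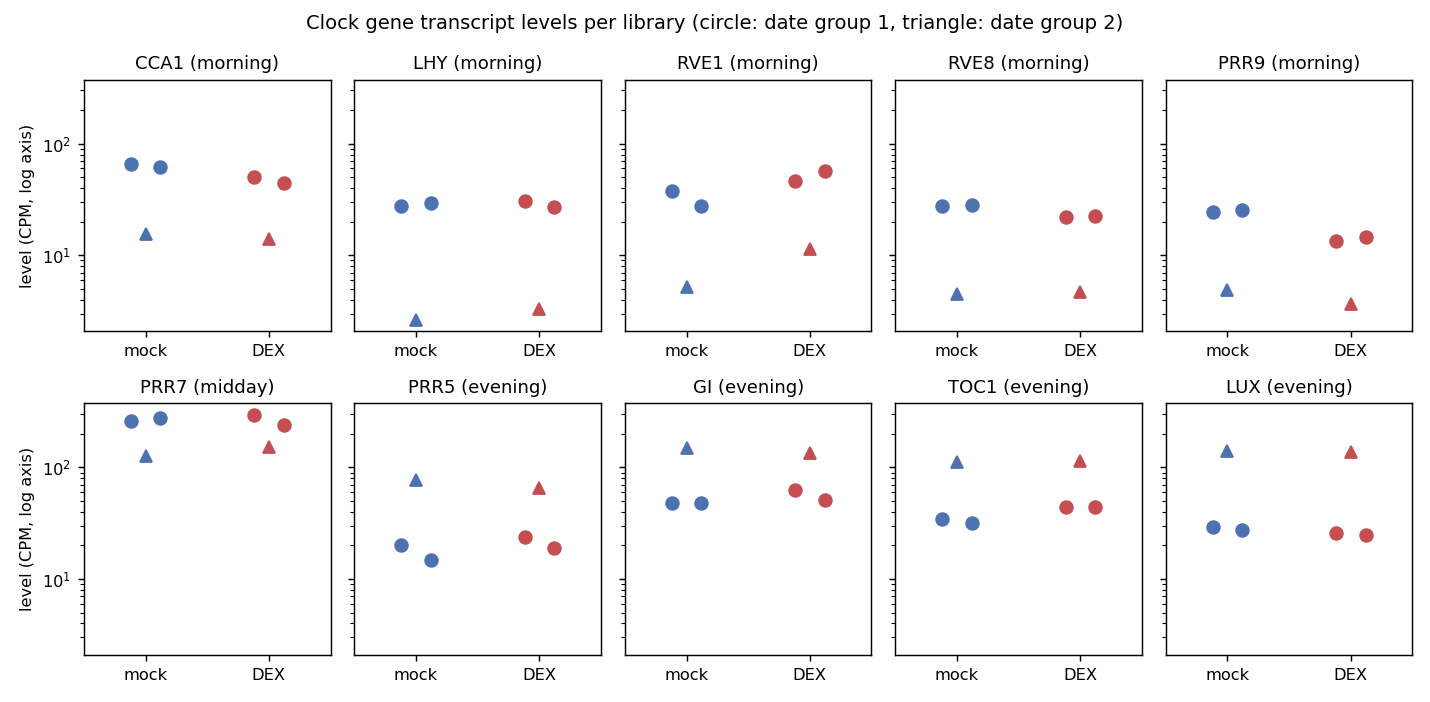
Transcript level of each clock gene in every library (CPM, log axis), with mock in blue, DEX in red, circles for date group 1 and triangles for date group 2. The date groups lie far apart for each of the 10 genes, RVE1 is higher and PRR9 lower with DEX in both date groups, and most other genes differ little by treatment.

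RVE1 (AT5G17300) is a MYB-like factor that acts as a clock output and promotes auxin synthesis by day. It was at 46.6 and 56.6 CPM with DEX and 37.3 and 27.9 CPM with mock in date group 1, and at 11.4 CPM (DEX) and 5.22 CPM (mock) in date group 2. Within each date group the DEX libraries were the higher ones, though over all 6 libraries the groups overlapped. Its log2 fold change was 0.79 ± 0.15 (SE), a 1.73-fold rise (adjusted p = 0.0325). RVE1 is overlapped on the opposite strand by AT5G17305, which held 7 to 30 counts per library. With the replicate number as a block its adjusted p was 0.0696. Leaving out DEX replicate 2 or 3 gave 0.121 and 0.111, and leaving out mock replicate 2 or 3 gave 0.128 and 0.109.

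PRR9 (AT2G46790), the first of the pseudo-response regulators to peak, was at 13.3 and 14.6 CPM with DEX and 24.4 and 25.6 CPM with mock in date group 1. In date group 2 it was at 3.67 CPM (DEX) and 4.86 CPM (mock). The DEX libraries were lower within each date group. The log2 fold change was −0.73 ± 0.12, or 0.605 of the mock level (edgeR adjusted p = 0.0159), and the adjusted p with the replicate block was 0.0366. Without DEX replicate 2, mock replicate 1 or mock replicate 2 it was 0.0805, 0.0644 and 0.0982.

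The remaining morning genes did not pass. CCA1 (AT2G46830), a MYB-like repressor at the heart of the clock, was at 50.1 and 44.7 CPM with DEX and 65.2 and 61.7 CPM with mock in date group 1, and at 14.1 and 15.6 CPM in date group 2. It was lower with DEX in both date groups, with a log2 fold change of −0.34 ± 0.10 (edgeR adjusted p = 0.101). DESeq2 called it (adjusted p = 0.0467). LHY (AT1G01060), the close partner of CCA1, was at 30.9 and 27.0 CPM with DEX and 27.8 and 29.6 CPM with mock in date group 1, so the groups overlapped. It was at 3.29 CPM (DEX) and 2.64 CPM (mock) in date group 2, and its log2 fold change was 0.08 ± 0.11 (edgeR adjusted p = 0.743). The 2 partner genes thus differed in sign, although neither passed. RVE8 (AT3G09600), an activator of evening genes, was at 21.9 and 22.3 CPM with DEX and 27.9 and 28.1 CPM with mock in date group 1. In date group 2 it was at 4.65 CPM (DEX) and 4.51 CPM (mock), so that the lower level with DEX was seen in date group 1 alone (log2 fold change −0.24 ± 0.11, edgeR adjusted p = 0.270).

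PRR7 (AT5G02810), which represses CCA1 and LHY around midday, was at 296 and 240.1 CPM with DEX and 261 and 277 CPM with mock in date group 1. Its groups overlapped there, and it was at 152 CPM (DEX) and 128 CPM (mock) in date group 2. The log2 fold change was 0.08 ± 0.11 (edgeR adjusted p = 0.776).

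None of the 4 evening genes passed (edgeR; 1, TOC1, at an unadjusted p under 0.05, and 0 by DESeq2). TOC1 (AT5G61380), the evening repressor of CCA1 and LHY, was at 44.6 and 43.9 CPM with DEX and 34.5 and 32.0 CPM with mock in date group 1. In date group 2 both libraries were at 113 CPM, with a log2 ratio of DEX to mock of 0.0046 there against 0.41 in date group 1 (over all libraries, log2 fold change 0.28 ± 0.10, adjusted p = 0.198). GI (AT1G22770), which stabilises the F-box protein ZTL that degrades TOC1, was at 62.4 and 51.0 CPM with DEX and at 48.1 CPM in both mock libraries in date group 1. It was at 136 CPM (DEX) and 148 CPM (mock) in date group 2 (0.12 ± 0.11, adjusted p = 0.651). PRR5 (AT5G24470), the afternoon pseudo-response regulator, was at 23.8 and 18.9 CPM with DEX and 20.1 and 14.7 CPM with mock in date group 1. It was at 64.9 and 76.8 CPM in date group 2 (0.11 ± 0.17, adjusted p = 0.791). LUX (AT3G46640), the DNA-binding subunit of the evening complex that represses PRR9 at night, was lower with DEX in both date groups. Its levels were 25.6 and 25.0 CPM against 29.3 and 27.6 CPM, and 137 against 142 CPM (−0.13 ± 0.08, adjusted p = 0.461). AT3G46650 overlaps LUX on the opposite strand and held 45 to 134 counts per library.

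**Figure D2:**
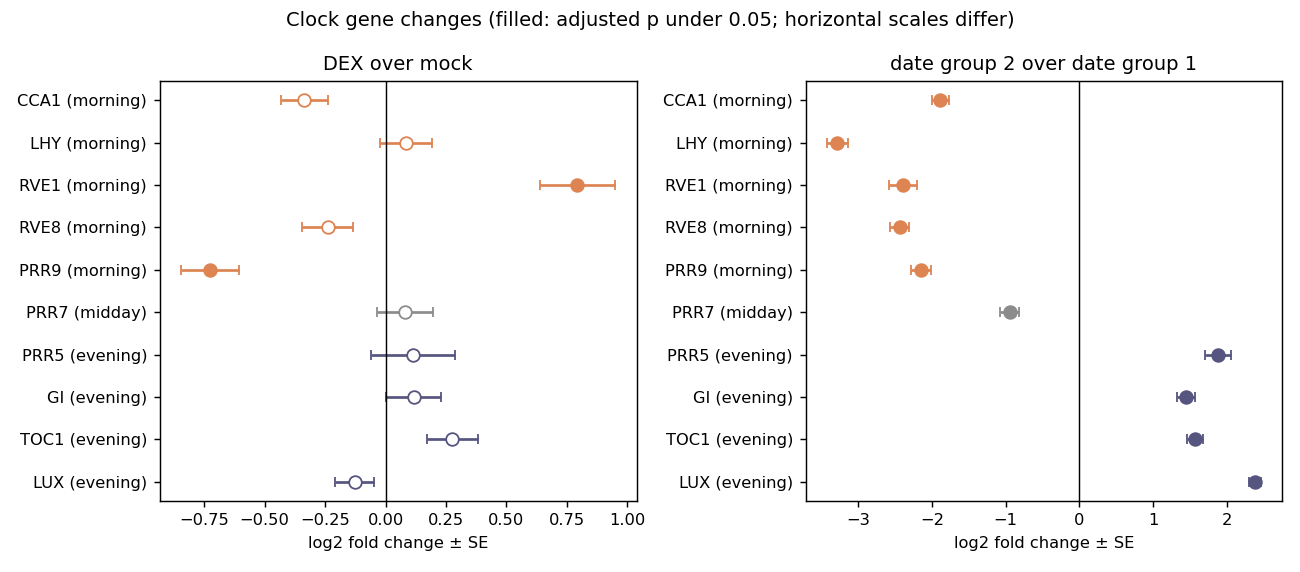
Log2 fold change (± SE) of each clock gene for DEX over mock (left) and date group 2 over date group 1 (right); filled points passed edgeR's test over all genes, orange marks morning, grey midday and purple evening genes. By treatment RVE1 and PRR9 passed in opposite directions, and by date all 5 morning genes and PRR7 lie below 0 and all 4 evening genes above it. The horizontal scales differ.

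Whether morning and evening genes shifted in opposite directions after DEX, as they would between different harvest hours from mid-morning into the afternoon, was asked next. Over all libraries 3 of 5 morning genes were lower with DEX (median log2 fold change −0.24) and 3 of 4 evening genes higher (median 0.11). Of the morning genes that passed, PRR9 fell and RVE1 rose. The date groups differed in sign. In date group 1 the mean log2 CPM of the morning genes minus that of the evening genes was −0.31 and −0.12 with DEX and 0.12 and 0.21 with mock, lower with DEX by 0.38 on average. In date group 2, with 1 library of each treatment, it was −4.13 with DEX and −4.42 with mock, so it was higher with DEX by 0.29. The morning genes there had log2 ratios of DEX to mock of 1.12 (RVE1), 0.32 (LHY), 0.04 (RVE8), −0.14 (CCA1) and −0.41 (PRR9). The morning genes had a median log2 ratio of DEX to mock of −0.34 in date group 1 and 0.04 in date group 2, and the evening genes of 0.27 and −0.08. Of the 10 genes, 6 had the same sign in both date groups, counting TOC1, whose ratio in date group 2 was near 0. The groups did not overlap within date group 1 for 7 of the 10, where 45.8% of all genes tested did not overlap, and overlapped for all 10 over the 6 libraries, where 8.18% of all genes did not.

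The difference of the DEX effect between date groups was tested as an interaction, and none of the 10 genes passed (0% of all genes did). At an unadjusted p under 0.05 there was 1, TOC1 (difference −0.41 ± 0.17, edgeR adjusted p = 0.761), and DESeq2 called 0. The difference was positive for all 5 morning genes, from 0.28 for CCA1 to 0.46 for RVE1, and negative for PRR5, GI and TOC1, from −0.54 to −0.36. For LUX, the other evening gene, it was positive (0.12). The test had little power for changes of this size. In simulated counts with 21797 genes it recovered 11% of interactions of 2-fold and 79% of those of 4-fold. A part of harvest hour in the difference between DEX and mock was not tested, since no label gives the hour.

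**Figure D3:**
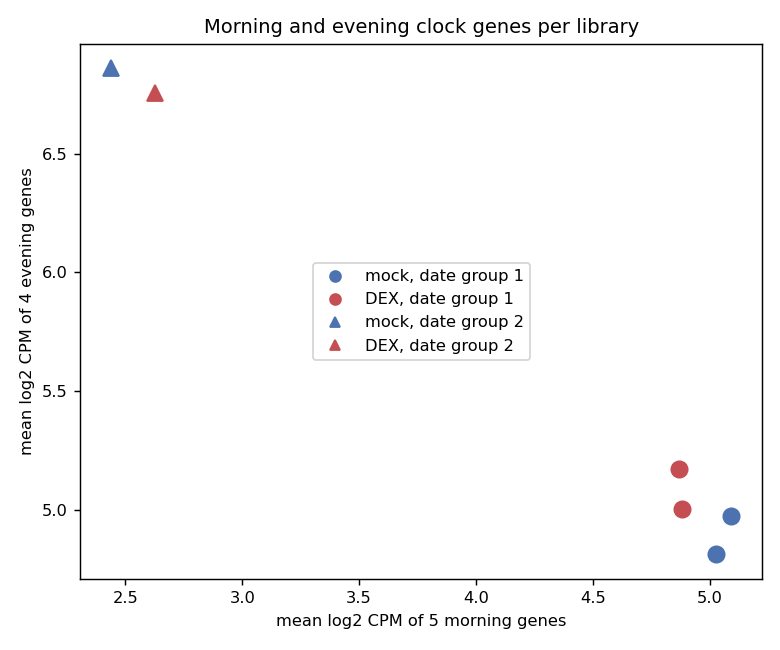
Mean log2 CPM of the 5 morning genes (horizontal) against that of the 4 evening genes (vertical), 1 point per library. The date group 1 libraries lie at lower right, with DEX shifted towards lower morning and higher evening levels, and the date group 2 libraries at upper left, far from all others.

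The largest differences among the clock genes ran between the date groups. All 10 genes passed (edgeR, treatment as a term), against 55.5% of all genes tested, 27.9% higher and 27.6% lower in date group 2. All 5 morning genes were lower in date group 2. LHY had 0.103 of its date group 1 level (log2 fold change −3.28 ± 0.14, edgeR adjusted p = 2.3e-06), RVE8 0.185, RVE1 0.19, PRR9 0.226 and CCA1 0.27. PRR7, the midday gene, had 0.519 of that level. All 4 evening genes were higher, LUX by 5.20-fold (2.38 ± 0.08, edgeR adjusted p = 1.1e-06), PRR5 by 3.69-fold, TOC1 by 2.96-fold and GI by 2.72-fold. Both date group 2 libraries lay outside the range of the 4 others for each of the 10 genes, as was so for 64.7% of all genes. Morning minus evening differed by −4.25 (log2) between the date groups, against 0.38 and 0.29 in size between DEX and mock within them. Library date, lane, root transcripts, TCP5 level and a possible difference in hour changed together here and cannot be told apart.

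Levels of different genes can be compared only per length. In CPM per kb of the deposited gene length, PRR7 was the highest in date group 1, at 83.0 ± 7.35 (SD, n = 4 libraries, 2 of each treatment). RVE1 (21.7 ± 6.33) and CCA1 (21.1 ± 3.67) followed, and their order differed by treatment. RVE1 was the higher with DEX (24.0 and 29.1 against 19.1 and 17.0 CPM per kb). CCA1 was the higher with mock (24.8 and 23.5 against 19.2 and 14.4 CPM per kb). The SDs here include the difference between treatments. TOC1, RVE8, GI and PRR5 lay between 13.8 and 11.5 CPM per kb, with SDs of 1.58 to 2.30 that exceeded the steps between them. LHY (9.83 ± 0.60), PRR9 (9.53 ± 3.14) and LUX (8.29 ± 0.60) were the lowest. In date group 2 PRR7, LUX, PRR5 and TOC1 had mean levels of 43.2, 43.0, 42.2 and 40.3 CPM per kb, GI 33.0, and the 5 morning genes between 5.64 and 1.01. By these means LUX was the lowest of the 10 in date group 1 and the second highest in date group 2, where LHY was the lowest. In the DEX libraries of date group 1, PRR9 (6.52 and 7.13 CPM per kb) lay below LUX (7.89 and 7.72 CPM per kb).

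**Figure D4:**
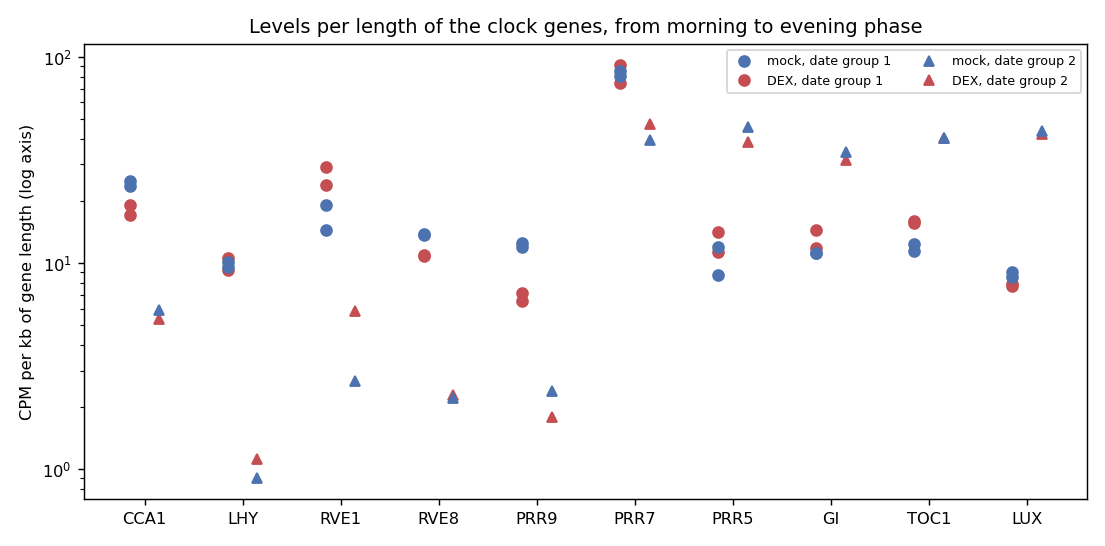
CPM per kb of gene length for the clock genes (log axis), 1 point per library, with date group 1 as circles and date group 2 as triangles. PRR7 is highest in date group 1; in date group 2 PRR7 and the 4 evening genes lie near each other, above the 5 morning genes.

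Intron reads, which come mainly from unspliced RNA, gave a second readout of the same libraries. None of the 9 clock genes with enough intron counts passed (edgeR over 12989 genes, of which 0.939% passed, 0.323% as rises and 0.616% as falls; 3 at an unadjusted p under 0.05; DESeq2 called 0). LUX held at most 2 intron counts per library and was not tested. RVE1 had an intron log2 fold change of 0.69 ± 0.27 (adjusted p = 0.364) beside 0.79 in exons, and PRR9 of −0.49 ± 0.49 (adjusted p = 0.835) beside −0.73. PRR9 held 19, 30 and 16 intron counts with DEX and 47, 80 and 3 with mock, so its date groups differed in sign. The other genes under 0.05 unadjusted were RVE8 (−0.83 ± 0.32, adjusted p = 0.360) and TOC1 (0.51 ± 0.23, adjusted p = 0.493). The depth of the intron counts limits this readout, since in simulated data with 12706 genes 36% of 2-fold changes were recovered.

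A wider list of 42 further clock genes and outputs was examined after DEX. In this list 6 genes fell and 0 rose (edgeR; 12 at an unadjusted p under 0.05; DESeq2 called 1 rise among the genes of no set phase), where 3.58% of all genes tested fell and 1.09% rose. The median log2 fold change was −0.06. Of the 15 with a morning phase, 5 fell and 11 were below 0 (median −0.39, against 0.00 for all genes). Of the 9 with an evening phase none passed and 6 were above 0 (median 0.13). Unlike the members, both sets kept the sign of their median in the 2 date groups. The morning set had a median log2 ratio of DEX to mock of −0.38 in date group 1 (12 lower, 3 higher). In date group 2 that median was −0.21 (9 lower, 6 higher). For the evening set the medians were 0.12 (7 higher, 2 lower) and 0.13 (6 higher, 3 lower). COL1, a CONSTANS-like B-box protein, was at 39.0, 36.4 and 12.7 CPM with DEX and 67.5, 68.4 and 27.3 CPM with mock. It was lower with DEX in both date groups, by −0.93 ± 0.09 (edgeR adjusted p = 0.0029), and it still passed with any 1 library left out. The RNA AT5G15845 overlaps COL1 over 1807 bases on the opposite strand with 465 to 5343 counts, so their reads cannot be told apart.

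CDF1, a DOF factor that represses CONSTANS in the morning, fell by 0.87 ± 0.15 (log2; edgeR adjusted p = 0.0187). CAT2, a catalase with a morning phase, fell by 0.57 ± 0.10, and it overlaps AT4G35080 by 95 bases. LNK3 and LNK4, of the family of coactivators that work with RVE8, fell by 0.45 ± 0.10 and 0.46 ± 0.09. CHE, the TCP protein known to bind the CCA1 promoter at the site shown above, was at 35.3, 27.4 and 39.0 CPM with DEX and 41.6, 48.3 and 58.0 CPM with mock. CHE had a log2 fold change of −0.54 ± 0.12 (edgeR adjusted p = 0.0414), lower with DEX in both date groups. With the replicate block COL1 and CDF1 still passed (edgeR adjusted p = 0.0109 and 0.0394), and CAT2, LNK4, LNK3 and CHE did not (0.0648, 0.0677, 0.0735 and 0.0817). The number of morning genes that fell was 7 without DEX replicate 1, 1 without DEX replicate 2 or mock replicate 2, and 2 without each other library.

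**Figure D5:**
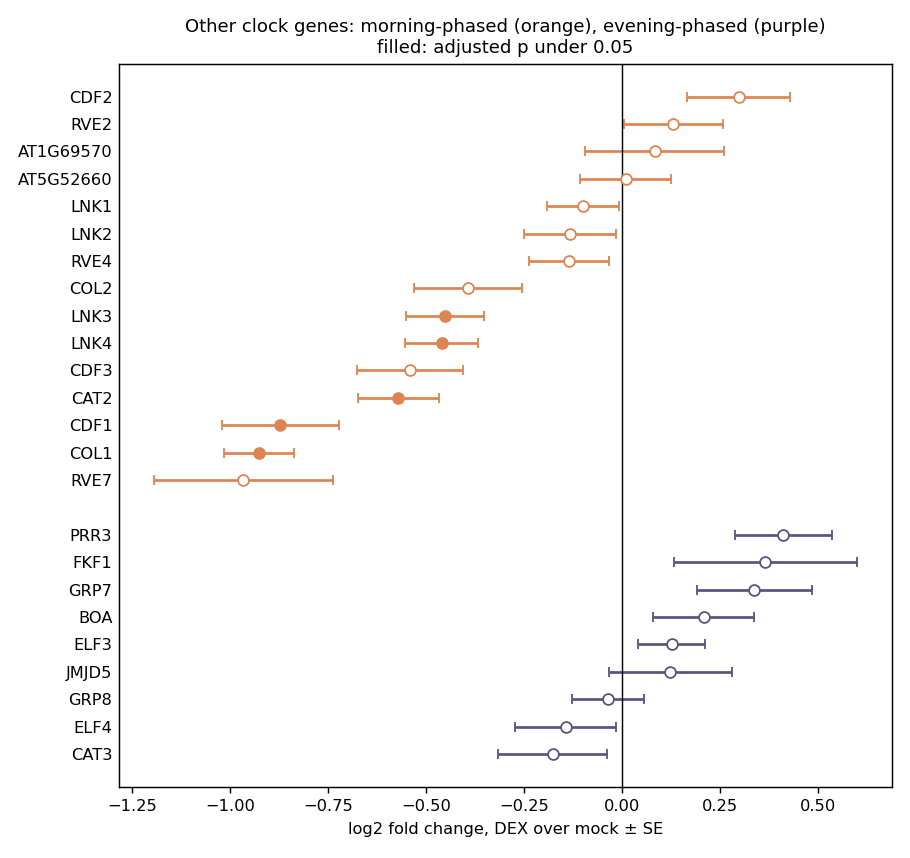
Log2 fold change of DEX over mock (± SE) for the 15 other morning-phased (orange) and 9 other evening-phased (purple) clock genes and outputs; filled points passed edgeR's test over all genes. The 5 filled points, COL1, CDF1, CAT2, LNK4 and LNK3, are all morning genes below 0.

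In the same date group comparison as above, 12 of these 15 morning genes were lower in date group 2 and 0 higher, and 8 of the 9 evening genes were higher and 1, the catalase gene CAT3, lower. Of all genes tested, 27.9% were higher and 27.6% lower. ELF4, the evening complex subunit that acts with LUX and ELF3, was at 1.58 to 1.91 CPM in date group 1 and at 28.8 and 36.2 CPM in date group 2, an 18.6-fold difference. FKF1, a blue-light receptor F-box protein of the afternoon, was 18.4-fold higher. GRP7, an RNA-binding protein with an evening peak, was 7.37-fold higher, and BOA, a close relative of LUX, 6.99-fold.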

How the data were processed

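Per the file headers, each deposited file held raw counts of 1 library, given per locus for exons, for introns and for both together, with the gene length in bases as another, non-count column deposited by the authors. The submitters' processing notes list STAR and DESeq2. Nothing used here names the counter or the genome build, or gives the treatment of reads that fit several loci. Per the labels' protocols the kit was TruSeq v2, so reads carry no strand. Of exon counts from 1 to 20, 16.6% to 25.8% were odd, against 45.9% to 49.8% of intron counts. The cause of this shortage of odd exon counts was not tested. All filters, tests and simulations took the deposited counts as they were. Introns held 2.07% to 2.57% of counts.

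The tests of exon and intron counts used edgeR 4.0.16 under R 4.3.3 (scaling by TMM, minimum count 10, minimum total 15, robust quasi-likelihood fit, date group and treatment as terms, adjusted p under 0.05 over all genes). The SE is the log2 fold change divided by the root of the F statistic. Alternatives used DESeq2 1.42.0, limma 3.58.1, other scalings, filters and left-out libraries. In simulated counts with 21785 genes the exon test recovered 80% of 2-fold and 93% of 4-fold changes, with 4.42% false calls. Here and in the simulations above, genes had no date group differences beyond changes added for the test, unlike the real libraries. These rates may therefore not hold for the real libraries. Promoters, overlaps and coordinates came from TAIR10.1 RefSeq alone, which matched 37898 of 38194 loci.

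Pairing by replicate number was used only as an alternative, the replicate block. Deviations from the group means correlated over genes at 0.70, 0.70 and 0.92 for libraries of the same number 1, 2 and 3. Crossed pairs within date group 1 correlated more, at 0.78 and 0.79. The values thus give no ground for pairing by number within date group 1, and the pairing seen is one by date group. No library duplicated another (lowest chi-square per degree of freedom 27.4).

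The members and lists were chosen with earlier results of these data known. The rule named all 10 members, genes of the wider list that passed, loci overlapping a member, and the nearest profiles of members that passed. Genes of the wider list named for the date groups were chosen after their values were seen.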

Additional observations from a re-analysis of the deposited data

How the results depend on the processing

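The number of clock genes called for DEX against mock was 2; it was 3 with DESeq2 (CCA1 added), 1 with total counts only, with the replicate block and in date group 1 alone, 0 without the date group term, and 0 to 2 with 1 library left out. RVE1 lost its call with total counts only too (edgeR adjusted p = 0.0506). For all genes the count was 1024; it was 2065 with DESeq2, 571 with the replicate block (546 shared with the 1024), 0 without the date group term (798 at an unadjusted p under 0.05) and 279 to 1132 with 1 library left out. The evening median log2 fold change of 0.11 became −0.011 without the date group term and 0.27 in date group 1 alone, and ranged from −0.017 to 0.28 with 1 library left out; the morning median ranged from −0.34 to −0.20. Sign changes were seen for PRR5 (−0.052 without the date group term). With 1 library left out PRR5 ranged from −0.053 to 0.31 and PRR7 from −0.0051 to 0.19, and in introns LHY from −0.045 to 0.90, PRR7 from −0.048 to 0.19, PRR5 from −0.27 to 0.23 and PRR9 from −1.1 to 0.067. The cause was not tested.

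Alternatives for the wider list were added after seeing the data. The 5 morning falls became 2 with the replicate block or in date group 1 alone, 0 without the date group term and 1 to 7 with 1 library left out. The 1 fall among genes of no set phase (CHE) became 0 under those same 3 settings and 0 to 1 with 1 library left out, and DESeq2 called 1 rise there. Between date groups, 5 genes of no set phase were lower; this was 3 without the treatment term and 3 to 6 with 1 library left out. The 10 clock genes passed between date groups under all 8 alternatives run. Intron calls over all genes were 122, 326 without a filter and 40 to 106 with 1 library left out. The interaction gave 0 genes with edgeR (1436 at an unadjusted p under 0.05) and 47 with DESeq2. Without either date group 2 library, the other no longer contributes to the treatment contrast. Among the clock genes and the 6 called genes of the wider list, the replicate block changed no exon call for DEX against mock other than those of RVE1, CAT2, LNK4, LNK3 and CHE, and no intron call of the 9 clock genes tested. Its values for PYK10, TCP5 and the RVE7 introns are not given here.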

Other observations

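COR27, a night-acting clock regulator also induced by cold, was at 0.55 to 1.47 CPM in date group 1 and at 26.7 and 25.1 CPM in date group 2, 26.4-fold higher (edgeR adjusted p = 4.8e-05). It was among the genes of the wider list given no phase. RVE7, a MYB-like gene of the morning also known as EPR1, was at 13.9 and 14.9 CPM with DEX and 34.1 and 37.5 CPM with mock in date group 1, and at 13.5 and 15.7 CPM in date group 2. Its exon log2 fold change did not pass (−0.97 ± 0.23, edgeR adjusted p = 0.0776), whereas its intron counts did (−1.94 ± 0.39, edgeR adjusted p = 0.0191).

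Profiles over the 6 libraries, centred on each gene's mean, were nearest to that of PRR9 for NIP6;1 (root mean square distance 0.071, log2), AT1G64500 (0.092) and GLN1;4 (0.10), among the 19434 genes whose mean reached 1 CPM. For RVE1 they were AT2G44130 (0.24), IMK2 (0.29) and WRKY49 (0.35). The date groups dominate these profiles.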
